A study of Mus musculus with 2 samples.

Results

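The measurements below concern 31 mouse genes of sterol metabolism, chosen by name from the 32285 genes of the count matrices. They comprised 18 genes of cholesterol synthesis, 3 genes that control synthesis or carry sterols between membranes, 2 uptake receptors, 4 genes of lysosomal release and esterification, and 4 genes of efflux and the receptors that control it. All 31 were present in both matrices. The study isolated living CD45+ cells from adrenal glands of C57Bl/6 mice aged 7 weeks, with no genetic change or treatment in either group. Female and male mice gave 1 library each, and the sources used here do not state how many animals went into a library. CD45 marks hematopoietic cells, and the libraries were made with the 10x Genomics kit that counts the 3′ ends of transcripts by unique molecular identifiers (UMIs).

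The adrenal cortex turns cholesterol into steroid hormones, and it draws on lipoprotein particles, stored esters and its own synthesis for that supply. Cells make cholesterol from acetyl-CoA through the mevalonate pathway and squalene. When membrane sterol is low, the transcription factor encoded by Srebf2 is released from its anchor Insig1 and raises synthesis and uptake genes. Cells take in lipoproteins through receptors such as those encoded by Scarb1 and Lrp1, free the cholesterol in the lysosome with Lipa, Npc1 and Npc2, and store the excess as esters with Soat1. Macrophages, which ingest dying cells and lipoproteins, pass the remainder out through the transporters Abca1 and Abcg1 under control of the oxysterol receptors encoded by Nr1h3 and Nr1h2.

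Promoter sequences were searched for letters that these genes share. RefSeq windows from 250 bases before to 50 bases after the transcription start (GRCm38.p6) were given for 24 of the 31 genes, and those of Sqle, Fdps, Fdft1, Stard4, Scarb1, Abcg1 and Npc1 were not analysed here. The letters CCAAT, searched on both strands, stood in 14 of the 15 synthesis windows (93.3%; Acat2 lacked them), against 41.1% of the windows of all 27025 genes and 14 of 19 windows (73.7%) of the other pathway genes read here. They also stood in both control windows (Srebf2 and Insig1) and in all 3 lysosomal and esterification windows (Lipa, Npc2 and Soat1), but in none of the 3 efflux windows and not in that of Lrp1. The sterol regulatory element, searched as TCACNCCAC, was found in Hmgcs1 alone among these genes and in 1.44% of all windows. An E-box, CACGTG, was found in Hsd17b7, Sc5d, Dhcr7, Insig1 and Abca1, and in 8.09% of all windows. The binding element of the oxysterol receptors, searched as GGTNA followed by another GGTNA after 5 bases, was found in Abca1 alone and in 0.818% of all windows. None of these motifs is contained in another, and a match of letters does not show a bound site. Only these letters were searched, so a window without a match may still hold another form of an element. The promoters of Hmgcs1 (an early enzyme of the pathway), Insig1 (sterol-sensing anchor) and Abca1 (efflux) are shown because these genes represent synthesis, its control and efflux. Capitals mark the motifs, either on the printed strand or, where the capitals read ATTGG, the CCAAT letters of the opposite strand. The regions are chr13:119690101-119690350 on the plus strand, chr5:28071162-28071362 on the plus strand and chr4:53159896-53160145 on the minus strand.
Hmgcs1: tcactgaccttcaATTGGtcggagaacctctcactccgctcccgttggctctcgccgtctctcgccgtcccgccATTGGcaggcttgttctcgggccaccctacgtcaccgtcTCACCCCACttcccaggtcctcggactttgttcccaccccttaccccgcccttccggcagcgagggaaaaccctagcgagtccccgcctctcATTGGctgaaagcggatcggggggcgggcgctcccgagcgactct
Insig1: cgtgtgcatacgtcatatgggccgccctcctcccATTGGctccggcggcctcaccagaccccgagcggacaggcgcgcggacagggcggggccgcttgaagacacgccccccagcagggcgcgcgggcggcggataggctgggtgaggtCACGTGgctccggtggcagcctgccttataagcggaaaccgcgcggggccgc
Abca1: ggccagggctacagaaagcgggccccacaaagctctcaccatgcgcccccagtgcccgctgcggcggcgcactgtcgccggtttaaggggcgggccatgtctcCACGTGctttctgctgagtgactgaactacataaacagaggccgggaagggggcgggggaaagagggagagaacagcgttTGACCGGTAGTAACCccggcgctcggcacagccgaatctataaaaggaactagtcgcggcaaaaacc
The run TCACCCCAC of Hmgcs1 is the sterol regulatory element, and its 3 runs of ATTGG are CCAAT matches. In Abca1 the run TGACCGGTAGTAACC is the receptor repeat read on the opposite strand.

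The female library held 3963 barcodes with a median of 3432 UMIs, and the male library 2685 with a median of 2777. After filters on genes detected and mitochondrial share, 3817 female and 2502 male cells remained, of which 3426 and 2225 received a class from canonical markers. The libraries shared 2 barcodes. Macrophage-like cells, called macrophages from here on, numbered 855 female and 902 male, with a median of 9 and 8 of 12 macrophage markers detected. Among them, 68 female and 132 male cells carried the Lyve1-high markers and 41 and 70 the Aldh1a2-high markers. The other macrophages (746 and 700) were split by their MHC class II transcripts into MHC class II high (563 and 660) and low (183 and 40). Monocytes numbered 212 and 121, with a median of 7 of 12 monocyte markers and 3 of 12 macrophage markers. Classical monocytes numbered 132 and 54, and nonclassical monocytes 60 and 53. Lymphocytes (2118 and 1015) were the sum of B, T and NK cells, and dendritic cells (56 and 48), innate lymphoid cells (52 and 34) and endothelial cells (39 and 41) were small classes. Endothelial cells normally lack CD45, so this class was carried through a sort that should remove it. Levels are given as UMIs of a gene per 1000000 UMIs of a class (CPM), with the female value before the male value and exact 95% Poisson intervals that cover counting error only. With 1 library per sex no test between conditions was possible, and a difference was called only when it passed a set fold (2-fold between classes) in the same direction in both libraries and the gene had at least 50 UMIs in either class in each library.

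Synthesis genes were sparse in most adrenal macrophages and in B, T and NK cells, and their sum was highest in nonclassical monocytes. The 18 synthesis genes summed to 249 CPM (232 to 267) in the other macrophages of the female library and 253 CPM (234 to 274) in those of the male library. The sums in nonclassical monocytes were 784 CPM (645 to 944) and 890 CPM (746 to 1053), the highest of the 12 classes in both libraries. In the male library this class stood above all others beyond the intervals, and in the female library its interval overlapped those of innate lymphoid cells and dendritic cells. Innate lymphoid cells followed with 614 CPM (494 to 753) and 534 CPM (405 to 690). Aldh1a2-high macrophages reached 485 CPM and 520 CPM, and classical monocytes 455 CPM and 405 CPM. Dendritic cells differed between libraries, with 558 CPM (475 to 651) and 332 CPM (266 to 410). B cells (204 CPM and 244 CPM), T cells (266 CPM and 270 CPM), NK cells (258 CPM and 247 CPM) and Lyve1-high macrophages (253 CPM and 276 CPM) lay nearest to the other macrophages.

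**Figure D1:**
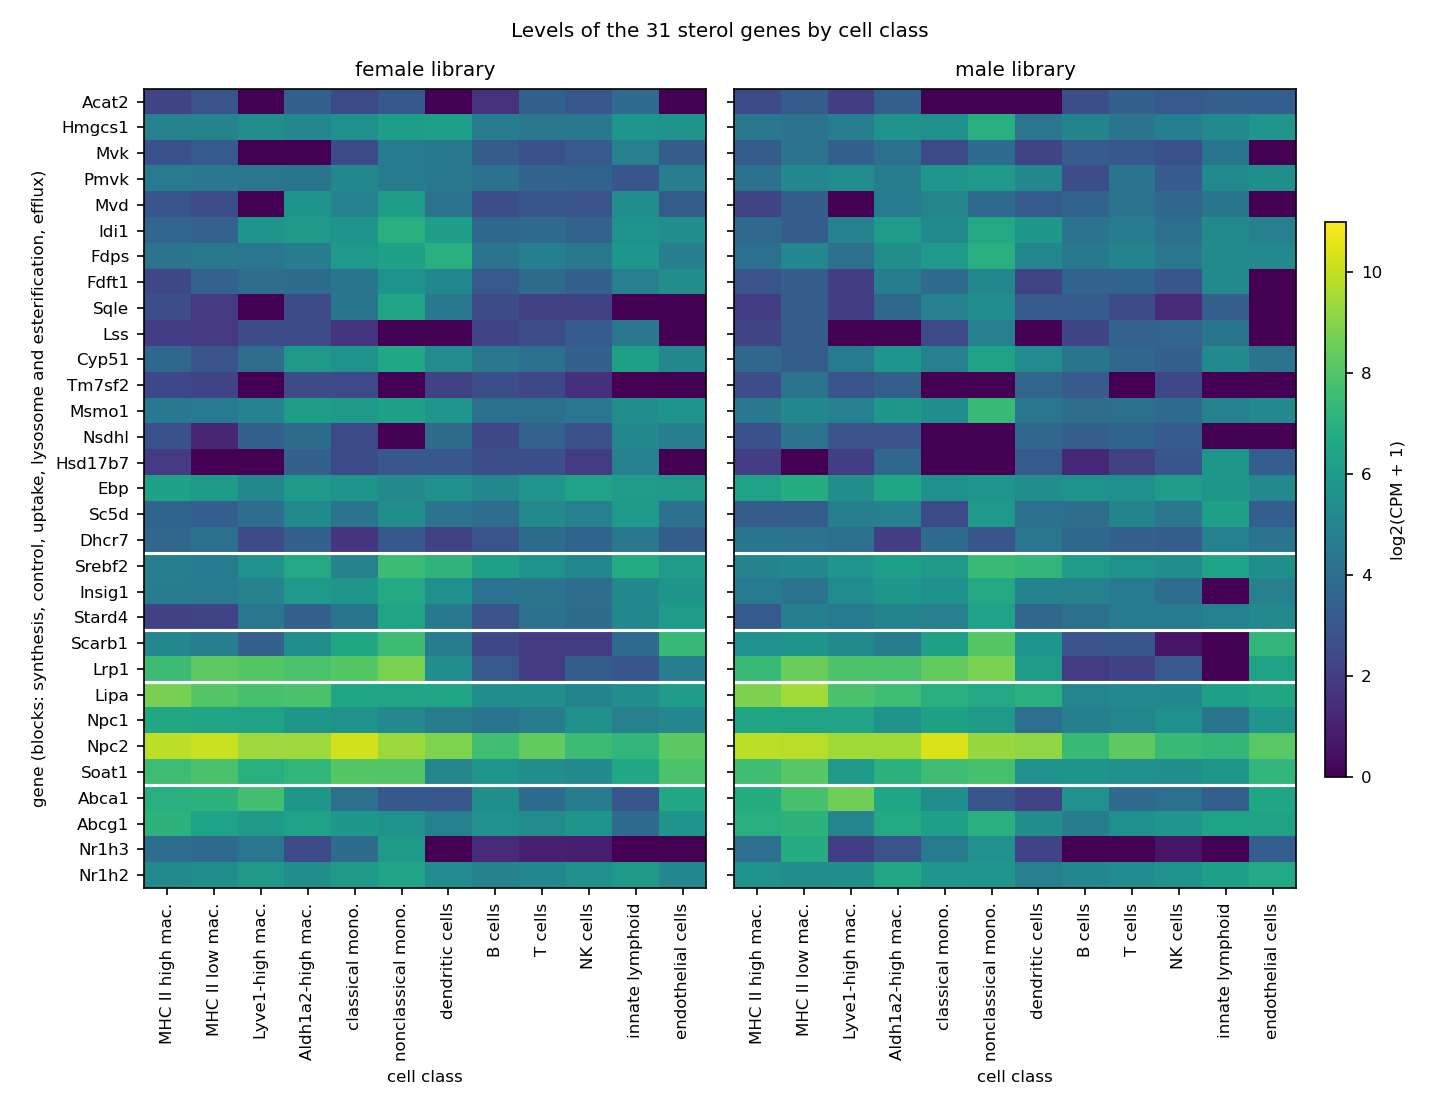
Level of each of the 31 genes (rows, grouped by role) in 12 cell classes (columns) as log2(CPM + 1), female library on the left and male library on the right. Lipa and Abca1 are strongest in macrophage columns and Scarb1 and Lrp1 in nonclassical monocytes, while most synthesis rows are strongest in nonclassical monocytes or innate lymphoid cells.

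A list of 9 immediate-early and heat-shock genes (Fos, Jun, Junb, Egr1, Atf3, Dusp1, Ier2, Hspa1a and Hspa1b) that tissue digestion is known to raise was also high in several classes with a high synthesis sum. It stood at 847 CPM and 1014 CPM in the other macrophages, and at 3106 CPM and 3744 CPM in nonclassical monocytes. Classical monocytes had 3490 CPM and 4095 CPM, innate lymphoid cells 2097 CPM and 2089 CPM, and T cells 458 CPM and 551 CPM. Lyve1-high macrophages had 1915 CPM and 2060 CPM of the digestion list beside a synthesis sum 1.02 (0.757 to 1.34) and 1.09 (0.863 to 1.36) times that of the other macrophages. Without Ebp, the synthesis gene with the most UMIs in macrophages, those ratios were 1.26 (0.918 to 1.71) and 1.36 (1.05 to 1.74). Nonclassical monocytes had no more of the list than classical monocytes but more of the synthesis genes. The part of the digestion response in the synthesis levels was not tested.

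**Figure D2:**
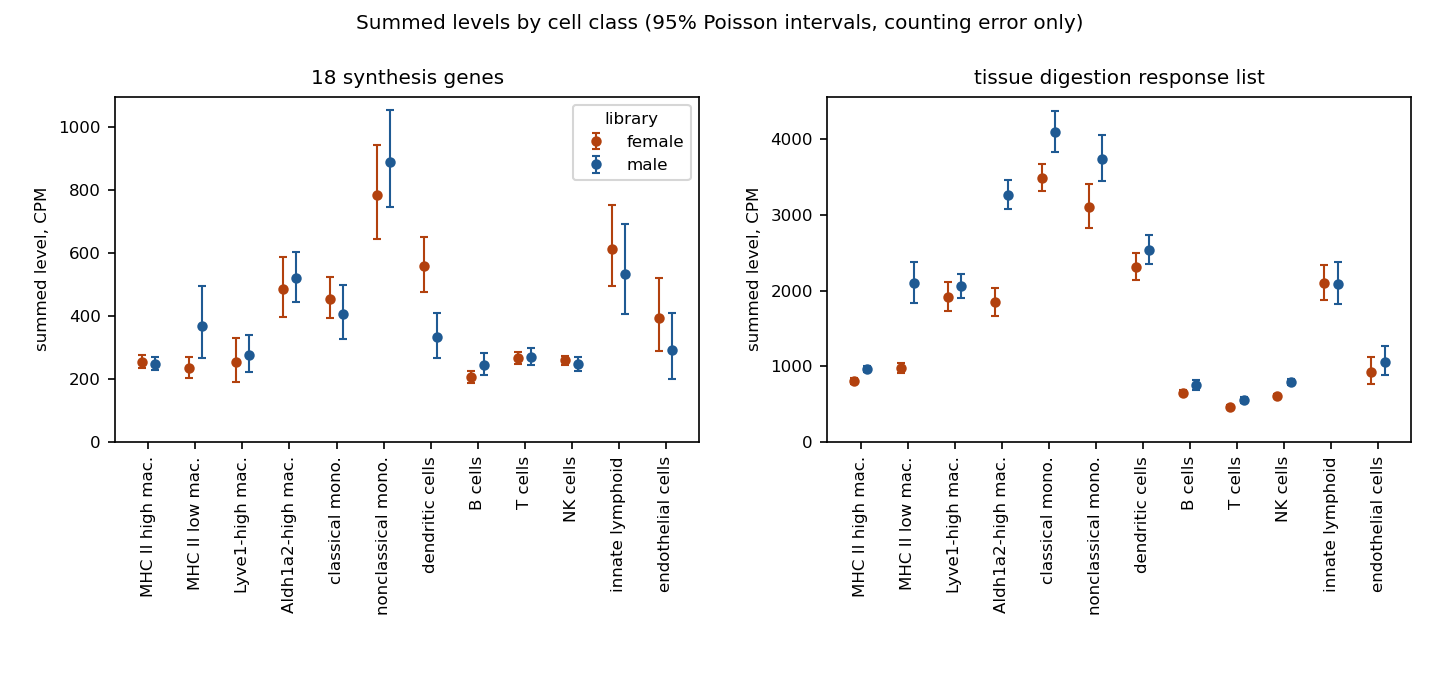
Summed CPM of the 18 synthesis genes (left) and of the digestion response list (right) by class, female and male libraries side by side, with exact 95% Poisson intervals as error bars. Nonclassical monocytes have the highest synthesis sum in both libraries (784 and 890 CPM), and Lyve1-high macrophages have a raised digestion list (1915 and 2060 CPM) beside synthesis sums of 253 and 276 CPM.

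Monocytes were then set against the other macrophages, a comparison added after the levels by class had been seen. The synthesis sum was 2.20 times that of the other macrophages (1.94 to 2.50) in the female library and 2.26 times (1.94 to 2.63) in the male library. Of the 31 genes 13 had enough UMIs, and 4 were called higher, against a background of 5.55% of all genes tested, and 2 lower, against 9.96%. The 4 higher genes were Msmo1, Srebf2, Insig1 and Scarb1, and the 2 lower ones were Lipa and Abca1. Msmo1, which removes methyl groups from the sterol ring, stood at 63.6 CPM and 84.9 CPM in monocytes and 21.2 CPM and 21.0 CPM in the other macrophages, ratios of 3.00 (1.98 to 4.49) and 4.05 (2.56 to 6.34). Srebf2, the master regulator of the pathway, stood at 69.8 CPM and 104 CPM against 24.4 CPM and 29.8 CPM, ratios of 2.86 (1.94 to 4.19) and 3.50 (2.34 to 5.16). Insig1, itself a target of that regulator, was 3.01 (2.04 to 4.40) and 2.95 (1.77 to 4.81) times higher. In the pooled monocytes, both regulators and the synthesis step thus lay above the other macrophages in each library. The 3 control genes summed to 374 CPM and 356 CPM in nonclassical monocytes and 100 CPM and 130 CPM in classical monocytes. The other macrophages had 51.6 CPM and 59.6 CPM. Srebf2 in classical monocytes lay below Aldh1a2-high macrophages in both libraries, and below Lyve1-high macrophages in the female library. At a mitochondrial ceiling of 5% Srebf2 and Scarb1 remained among the higher genes, and Msmo1 and Insig1 did not. A ceiling of 1.2% is named in the study's methods, but on these barcodes it leaves far fewer cells than the study kept, so its scale may be another. Applied as percent, it left 77 and 47 monocytes, and 0 genes were called in either direction. Classes by likelihood called 7 genes higher, and a minimum of 200 UMIs called 0. The 5.55% and 9.96% belong to the main settings. Counts at these other settings have no number tested and no share of all genes beside them.

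Most synthesis genes were too sparse for the rule of 50 UMIs, so the same ratios were also read at a minimum of 20 UMIs. At that depth 23 genes had enough UMIs and 9 were higher, against a background of 6.14%: Idi1, Fdps, Cyp51, Msmo1, Sc5d, Srebf2, Insig1, Stard4 and Scarb1. Idi1, the isomerase that makes the building block for chain growth, stood at 65.1 CPM and 60.6 CPM in monocytes against 10.8 CPM and 12.5 CPM, ratios of 6.05 (3.76 to 9.81) and 4.85 (2.75 to 8.49). Cyp51, the lanosterol demethylase, stood at 60.5 CPM and 43.6 CPM against 10.4 CPM and 11.3 CPM. Fdps, which makes farnesyl diphosphate, stood at 71.3 CPM and 75.2 CPM against 18.4 CPM and 16.1 CPM. Stard4, a cytosolic sterol carrier, was 9.36 (4.31 to 21.5) and 5.45 (2.77 to 10.6) times higher. In the female library it passed the minimum through monocytes alone, with 21 UMIs against 11.

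Other synthesis genes missed 2-fold in the female library or lay lower in monocytes. Hmgcs1, which makes HMG-CoA, had ratios of 1.80 (1.17 to 2.71) and 3.93 (2.44 to 6.26), and Pmvk, a mevalonate-branch kinase, 1.44 (0.829 to 2.40) and 2.94 (1.66 to 5.06). Among the 13 synthesis genes with at least 20 UMIs in both classes together, 10 had a ratio above 1 in both libraries, against 33.9% of all genes, and all 3 control genes did. Mvk, Ebp and Dhcr7 were the exceptions. Ebp, the sterol isomerase, was the synthesis gene with the most UMIs in macrophages, at 74.7 CPM and 81.8 CPM in the other macrophages and 48.1 CPM and 48.5 CPM in monocytes, ratios of 0.644 and 0.593. Ebp therefore weighed on the sum, and without it the monocyte ratio was 2.87 and 3.06. Dhcr7, the last reductase of the pathway, had ratios of 0.377 and 0.523 from 3 and 4 UMIs in monocytes. Sqle, the squalene epoxidase, had the reverse pattern with 34.1 CPM and 31.5 CPM against 4.43 CPM and 3.22 CPM, ratios of 7.70 (3.77 to 16.3) and 9.78 (3.76 to 27.2), but from 14 and 8 UMIs in macrophages it did not reach either minimum in both libraries. Mvd, the decarboxylase that closes the mevalonate branch, was 5.88 (3.11 to 11.2) and 6.02 (2.25 to 16.1) times higher, and Fdft1, the squalene synthase, 4.36 (2.08 to 9.05) and 3.39 (1.32 to 8.14) times, from 24 UMIs or fewer in monocytes.

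The remaining synthesis genes were at or near the floor of detection in monocytes. Acat2, Tm7sf2, Nsdhl and Hsd17b7 each had 2 or 3 UMIs in female monocytes and 0 in male monocytes, and Lss had 1 and 5. Their levels in the other macrophages lay between 1.90 CPM (Hsd17b7, female) and 6.45 CPM (Nsdhl, male). Hsd17b7 (27.0 CPM and 55.2 CPM, from 4 and 6 UMIs) and Sc5d, the desaturase (60.7 CPM and 73.6 CPM, from 9 and 8 UMIs), had their highest levels in innate lymphoid cells in both libraries, but not beyond the intervals of the next class. The same held for Mvk and Dhcr7. Reads of Tm7sf2 can be shared with Vps51, whose exons overlap it on the same strand.

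Of the 31 genes 9 had their highest level in nonclassical monocytes in both libraries, namely Idi1, Sqle, Cyp51, Msmo1, Srebf2, Insig1, Stard4, Scarb1 and Lrp1. Among the 28 genes with at least 50 UMIs over the 12 classes in each library, 8 did so (all but Sqle), against 4.93% of all genes with that depth. The count of 9 fell to 5 at a mitochondrial ceiling of 5%, to 4 by the mean of single cells and to 3 at 1.2%. The 4.93% was read at the main settings, and these lower counts have no such share beside them. Srebf2 stood at 184 CPM (120 to 269) and 178 CPM (117 to 259), and the nearest class, dendritic cells, at 142 CPM and 149 CPM, within those intervals. Msmo1 in male nonclassical monocytes, at 171 CPM (112 to 251), stood above every other class beyond the intervals, whereas at 77.7 CPM (38.8 to 139) in the female library it did not differ from Aldh1a2-high macrophages at 69.9 CPM (39.1 to 115). Idi1 stood at 120 CPM and 98.9 CPM, and Stard4 at 84.7 CPM and 79.1 CPM.

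Against classical monocytes, only Lrp1 and Npc2 had 50 UMIs in both libraries, and neither was called, against backgrounds of 4.34% higher and 3.44% lower. Lrp1 had ratios of 1.60 (1.16 to 2.19) and 1.33 (0.936 to 1.88). Npc2, the luminal sterol carrier of the lysosome, was lower in nonclassical cells, at 657 CPM and 626 CPM against 1207 CPM and 1317 CPM, ratios of 0.544 and 0.476. At a minimum of 20 UMIs, Srebf2 and Scarb1 of 7 genes were higher, against 4.36%. Srebf2, with 13 classical UMIs in each library, and Scarb1 in the male library, with 17, passed that minimum through nonclassical cells alone, where they were high. The synthesis sum was 1.72 (1.35 to 2.18) and 2.20 (1.67 to 2.91) times that of classical monocytes. Classes by likelihood put the male ratio at 1.46, and the ceiling of 1.2% put it at 1.12 and the female ratio at 2.30. A list of 15 adrenal cortex and medulla genes, read for RNA from other cells of the gland, was also higher in nonclassical cells, at 134 CPM and 244 CPM against 68.2 CPM and 58.4 CPM, ratios of 1.97 (1.05 to 3.61) and 4.17 (2.17 to 8.56). One of the 15, Fdx1, was present in every class, and without it the ratios were 2.51 (1.25 to 5.00) and 6.23 (2.83 to 15.6). The part of these genes in the difference was not tested. All 4 synthesis genes with 20 UMIs in the pair of classes (Hmgcs1, Idi1, Fdps and Msmo1) had ratios above 1 in both libraries, against 37% of all genes. One of the markers that separates these monocytes, Nr4a1, is also an immediate-early gene, and its part in the split was not tested.

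**Figure D3:**
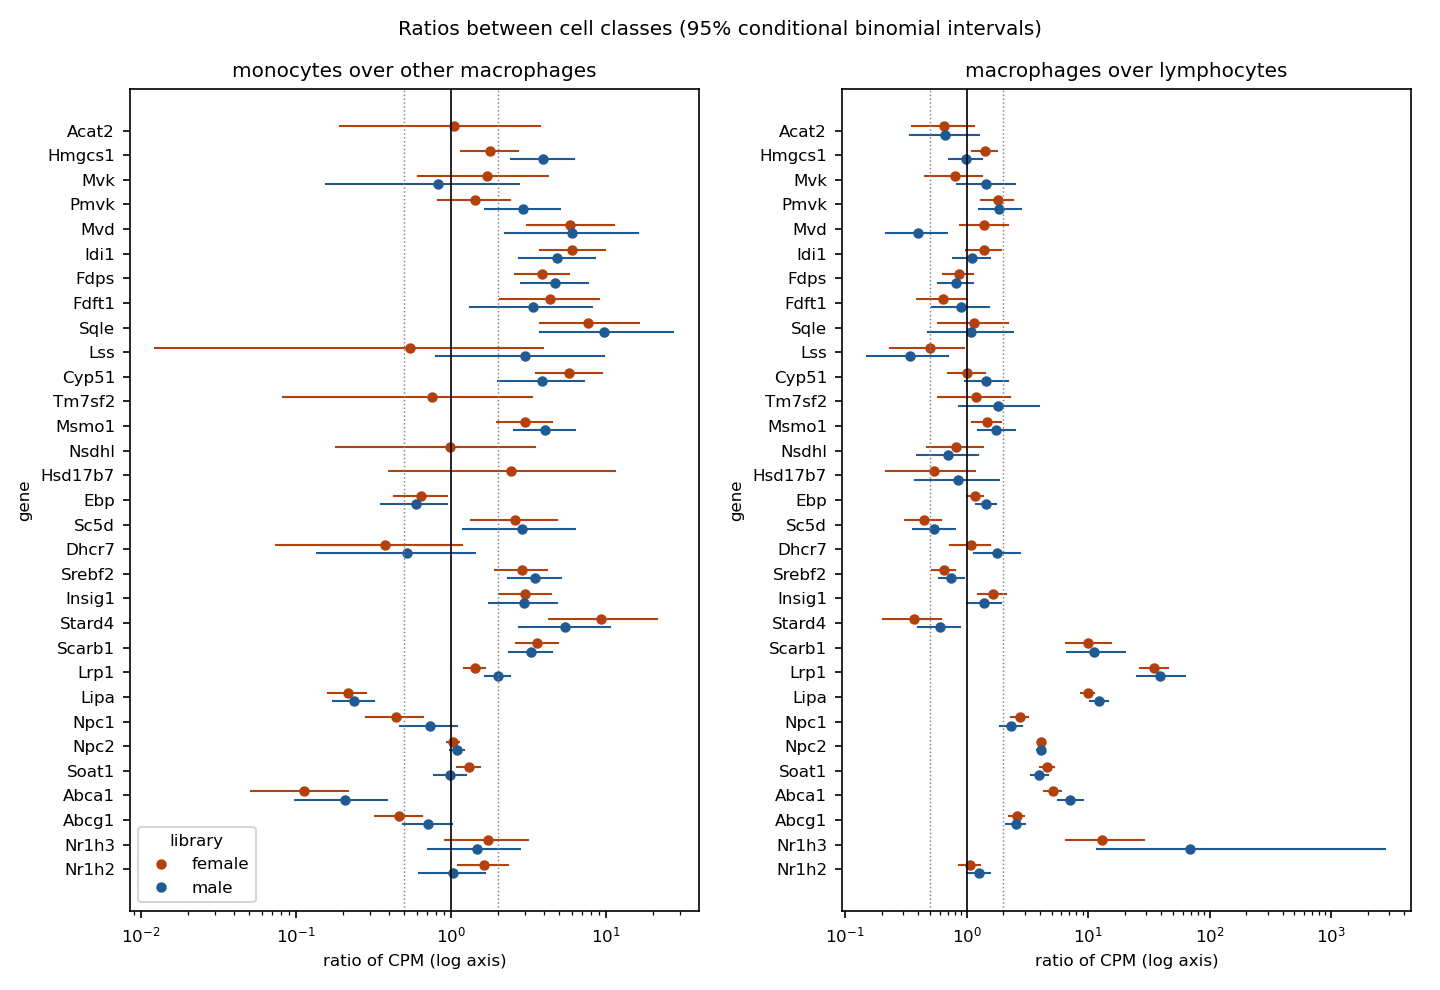
Ratio of CPM for each gene on a log axis, monocytes over other macrophages (left) and macrophages over lymphocytes (right), for both libraries, with exact 95% conditional binomial intervals and dotted lines at 0.5 and 2. Genes with 0 UMIs in a class are not drawn. Synthesis and control genes lie mostly right of 1 in the left panel and near 1 in the right panel, where uptake, lysosomal and efflux genes other than Nr1h2 lie past 2.

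Uptake, lysosomal and most efflux genes were higher in macrophages than in lymphocytes, and no synthesis gene was called in either direction. With 23 genes tested, 9 were higher in macrophages, against a background of 15%, and 0 lower, against 11%. The 9 included both uptake receptors, all 4 lysosomal and esterification genes and 3 of 4 efflux genes, and none of the 10 synthesis and 3 control genes tested. Scarb1, Nr1h3 and, in the male library, Lrp1 (21 UMIs in lymphocytes) passed the minimum through macrophages alone, where they were high, so their calls follow in part from the filter. At the ceiling of 1.2% Lrp1, Lipa and Npc2 were called, from 59 and 98 macrophages, with no share of all genes at that ceiling. The synthesis sum was 263 CPM and 284 CPM in macrophages and 250 CPM and 255 CPM in lymphocytes, ratios of 1.05 (0.976 to 1.14) and 1.11 (1.02 to 1.22). When mitochondrial, ribosomal protein and immunoglobulin genes were left out of the totals, all genes shifted by -0.27 and -0.26 on the log2 scale and the ratios became 0.871 and 0.929, and at the ceiling of 1.2% they were 1.87 and 1.76, so no direction is given for this sum. Sc5d (0.444 and 0.541), Stard4 (0.366 and 0.598) and Srebf2 (0.646 and 0.747) had ratios under 1 without reaching 2-fold in both libraries.

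Lrp1, a large endocytic receptor for remnant lipoproteins and other ligands, had the largest female ratio of macrophages to lymphocytes among the 31 genes, and the largest male ratio after Nr1h3. It stood at 221 CPM and 194 CPM in macrophages and 6.37 CPM and 5.01 CPM in lymphocytes, ratios of 34.6 (26.6 to 45.8) and 38.8 (25.2 to 63.1). Monocytes had 307 CPM and 366 CPM, and dendritic cells 41.6 CPM and 64.9 CPM. Lrp1 was thus present in every macrophage and monocyte class and low in the lymphocyte classes in both libraries.

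Scarb1, the receptor that takes cholesteryl esters selectively from high-density lipoprotein and that steroid-making cells use in abundance, stood at 30.7 CPM and 43.1 CPM in macrophages and 3.08 CPM and 3.82 CPM in lymphocytes, ratios of 9.96 (6.56 to 15.6) and 11.3 (6.70 to 20.3). It reached 50 UMIs through macrophages alone. UMIs of Scarb1 were found in 11.3% and 12.6% of macrophages, and in 1.23% and 1.48% of lymphocytes, with median depths of 3612 and 2542 UMIs against 3768 and 3711. After 1000 UMIs were drawn from each cell, with 785 and 760 macrophages and 2085 and 991 lymphocytes deep enough, the shares were 2.42% and 3.95% against 0.288% and 0.202%. Monocytes carried more, at 113 CPM and 153 CPM against 31.3 CPM and 46.3 CPM in the other macrophages, ratios of 3.61 (2.63 to 4.94) and 3.30 (2.39 to 4.52). Nonclassical monocytes had the highest level of the 12 classes, at 184 CPM (120 to 269) and 270 CPM (194 to 367), beside endothelial cells at 167 CPM and 150 CPM. The adrenal cortex and medulla genes summed to 305 CPM and 292 CPM in macrophages against 66.2 CPM and 101 CPM in lymphocytes, and to 80.6 CPM and 138 CPM in monocytes. Fdx1 gave 40.0 CPM and 36.5 CPM of the lymphocyte sums, and without it the ratios of macrophages to lymphocytes were 10.2 (8.88 to 11.8) and 3.64 (3.16 to 4.20), and those of monocytes to the other macrophages 0.223 (0.157 to 0.308) and 0.490 (0.355 to 0.662). They reached 2661 CPM and 827 CPM in endothelial cells. The adrenal genes were therefore higher in macrophages than in lymphocytes, as Scarb1 was. In the pooled monocytes they were lower than in the other macrophages, whereas Scarb1 was higher. In nonclassical monocytes, where Scarb1 was highest, the adrenal genes without Fdx1 stood at 120 CPM and 224 CPM. The other macrophages had 265 CPM and 228 CPM of them. Their part in the Scarb1 levels of macrophages and monocytes was not tested.

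Lysosomal and esterification genes had the most UMIs behind them in macrophages. Lipa, the acid lipase that frees cholesterol from lipoprotein esters, stood at 369 CPM and 414 CPM in macrophages against 37.2 CPM and 33.9 CPM in lymphocytes, ratios of 9.92 (8.81 to 11.2) and 12.2 (10.3 to 14.7). Monocytes had 83.8 CPM and 112 CPM, so that the ratio to the other macrophages was 0.216 (0.161 to 0.283) and 0.239 (0.174 to 0.320), from 54 and 46 UMIs in monocytes. In the male library Lipa passed the minimum in this comparison through the other macrophages alone, where it was high. Its level was higher in macrophages than in monocytes or lymphocytes in both libraries. Npc2 stood at 957 CPM and 904 CPM in macrophages against 234 CPM and 222 CPM, and at 1030 CPM and 1050 CPM in monocytes, 1.04 (0.9501 to 1.13) and 1.10 (0.987 to 1.21) times the other macrophages. Npc1, its membrane partner, was 2.73 (2.32 to 3.20) and 2.31 (1.89 to 2.84) times higher in macrophages than in lymphocytes. Soat1, which esterifies free cholesterol for storage, was 4.59 (4.05 to 5.20) and 3.98 (3.37 to 4.72) times higher. Its level in monocytes, 262 CPM and 199 CPM, was near that of the other macrophages, 201 CPM in each library.

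Among the efflux genes, Abca1 was the one called lower in monocytes. Abca1, which loads cholesterol onto lipid-poor apolipoproteins, stood at 125 CPM and 142 CPM in macrophages, 24.3 CPM and 20.0 CPM in lymphocytes and 14.0 CPM and 24.3 CPM in monocytes. Its ratios were 5.12 (4.36 to 6.04) and 7.10 (5.61 to 9.08) against lymphocytes, and monocytes over the other macrophages gave 0.113 (0.0513 to 0.217) and 0.208 (0.0988 to 0.389), from 9 and 10 UMIs in monocytes, so that it passed the minimum through macrophages alone. In nonclassical monocytes it had 1 UMI in each library. Abcg1, which exports cholesterol to mature particles, was 2.58 and 2.53 times higher in macrophages than in lymphocytes, and its monocyte ratio of 0.464 and 0.713 was not called. Nr1h3, the oxysterol receptor of macrophages, had 50 and 52 UMIs in macrophages (13.9 CPM and 16.6 CPM) and 10 and 1 in lymphocytes, which gave ratios of 13.1 (6.58 to 29.0) and 69.6 (12.0 to 2799). Like Scarb1 it passed the minimum through macrophages alone, and its exons overlap those of Gm13783 on the same strand. Nr1h2, the receptor present in most tissues, had 1.07 and 1.26 and was the efflux gene not called. In monocytes both receptors had ratios above 1, at 1.74 (0.919 to 3.14) and 1.47 (0.714 to 2.81) for Nr1h3 and 1.63 (1.12 to 2.34) and 1.04 (0.619 to 1.66) for Nr1h2.

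**Figure D4:**
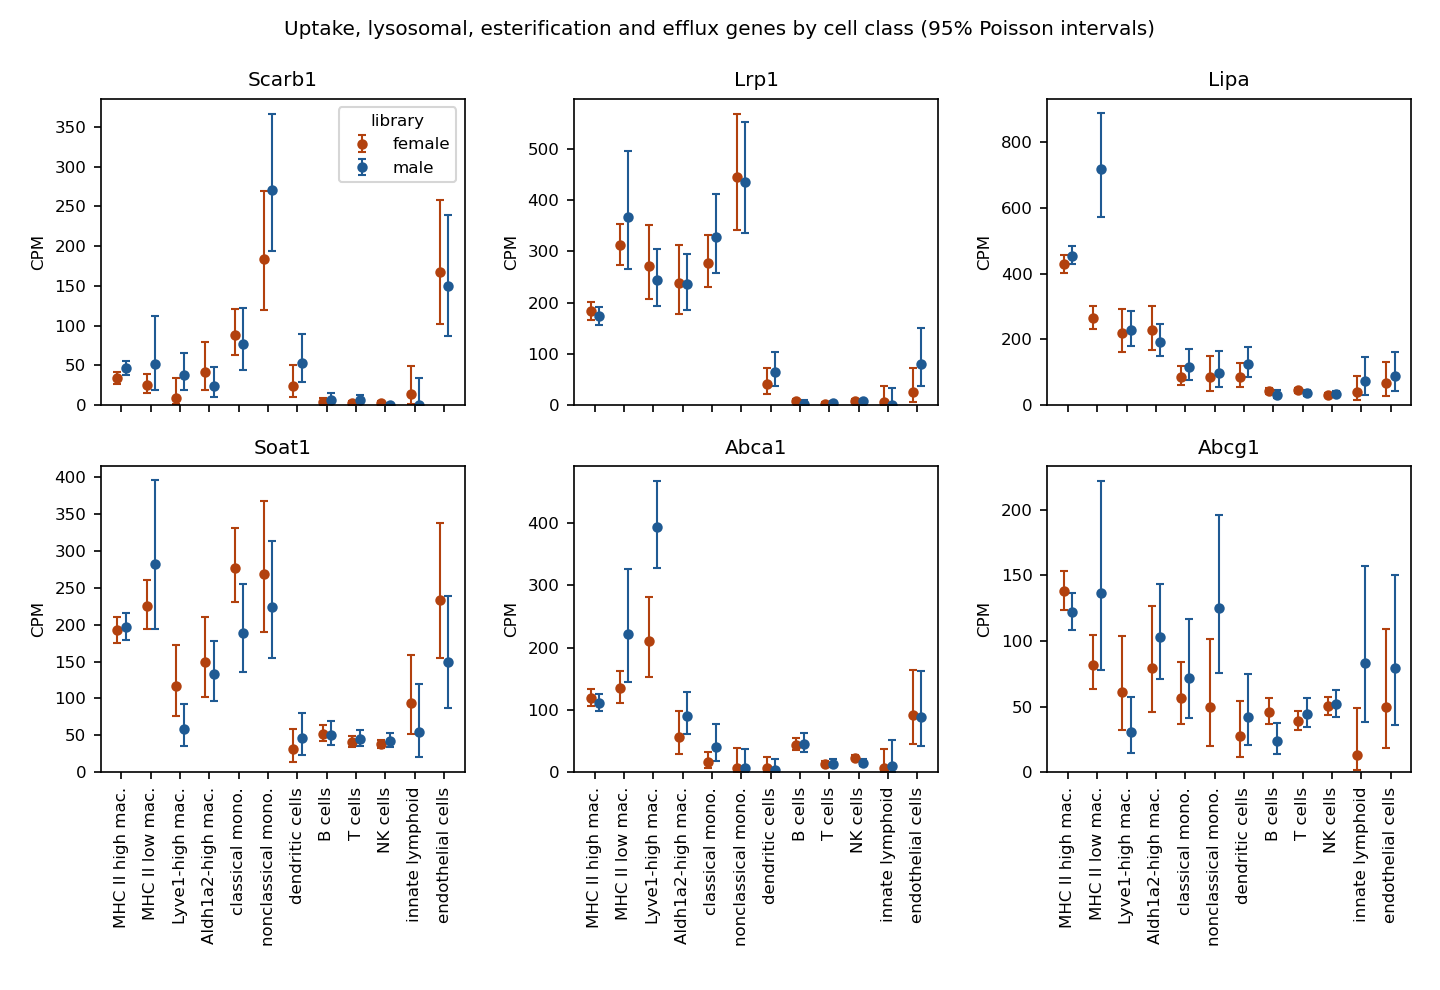
CPM of 6 uptake, lysosomal, esterification and efflux genes (Scarb1, Lrp1, Lipa, Soat1, Abca1 and Abcg1) in 12 classes, female and male libraries, with exact 95% Poisson intervals and a separate linear axis per gene. Lipa and Abca1 are high in macrophages and low in monocytes. Scarb1 and Lrp1 are highest in nonclassical monocytes in both libraries, but not beyond the intervals of the next class.

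Among macrophages, the Lyve1-high and Aldh1a2-high subsets were each set against the other macrophages. The 3 control genes summed to more in both subsets, at ratios of 1.82 (1.08 to 2.90) and 1.92 (1.30 to 2.77) in Lyve1-high and 3.25 (2.20 to 4.69) and 2.64 (1.88 to 3.64) in Aldh1a2-high cells. The 4 lysosomal and esterification genes summed to less in both, at 0.654 and 0.623 in Lyve1-high and 0.662 and 0.623 in Aldh1a2-high cells. Lyve1-high macrophages, which carry the markers of vessel-associated cells, had 0 of 13 genes called higher, against 4.45%, and Abcg1 called lower, also against 4.45%. Abcg1 stood at 60.9 CPM and 30.98 CPM in them (13 and 10 UMIs, so that it passed the minimum through the other macrophages alone) against 124 CPM and 122 CPM, ratios of 0.492 (0.260 to 0.851) and 0.253 (0.1201 to 0.472), a call lost at a mitochondrial ceiling of 5% and without a ceiling. Abca1 stood at 211 CPM (154 to 282) and 393 CPM (328 to 468), against 123 CPM and 116 CPM, ratios of 1.71 (1.23 to 2.33) and 3.38 (2.72 to 4.18). These were the highest levels of Abca1 in the 12 classes in both libraries, although the female ratio missed 2-fold. In the female library the level did not stand above that of MHC class II low macrophages beyond the intervals. At the ceiling of 1.2% the female ratio was 5.92, from 2 Lyve1-high cells, and no male cell was left. Lyve1-high cells had a mitochondrial share of 5.26% and 6.01% against 3.43% and 3.22% in the other macrophages, and median depths of 2220 and 1980 UMIs against 3738 and 2672. Their adrenal cortex and medulla list was 1.21 (0.948 to 1.53) and 1.47 (1.21 to 1.76) times that of the other macrophages, and the part of these measures in the Abca1 level was not tested. The 2 transporters had ratios on opposite sides of 1, but Abca1 was not called and the Abcg1 call follows in part from the filter. Soat1 was at 117 CPM and 58.9 CPM (ratios of 0.583 and 0.293), and Lipa at 220 CPM and 229 CPM (0.567 and 0.490), neither 2-fold in both.

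Aldh1a2-high macrophages, which carry Retnla and Fn1 beside Aldh1a2, had 3 of 13 genes higher, against 3.39%, and 0 lower, against 7.27%. The 3 were Msmo1, Srebf2 and Insig1, which were also called in monocytes against the same other macrophages. Msmo1 stood at 69.9 CPM and 57.5 CPM against 21.2 CPM and 21.0 CPM, ratios of 3.30 (1.75 to 5.83) and 2.74 (1.53 to 4.72). Srebf2 had 97.9 CPM and 72.6 CPM, ratios of 4.02 (2.35 to 6.58) and 2.43 (1.47 to 3.90). Insig1 had ratios of 2.55 (1.30 to 4.63) and 2.55 (1.41 to 4.42). The subset therefore had synthesis and control transcripts above the other macrophages in both libraries, from 41 and 70 cells. At a ceiling of 5% Srebf2 alone was called, and at 1.2%, with 9 and 17 cells, none. Neither ceiling has a share of all genes to set beside these calls. At a minimum of 20 UMIs, Idi1, Cyp51 and Sc5d joined them and 6 of 22 genes were higher, against 4.1%. Of 11 synthesis genes with 20 UMIs in both classes together, 7 had ratios above 1 in both libraries, against 29.4%. The summed synthesis ratio was 1.95 (1.57 to 2.39) and 2.06 (1.73 to 2.44), and 1.48 and 3.46 at the ceiling of 1.2%. The digestion list stood at 1845 CPM and 3269 CPM, with a median of 2 of 12 monocyte markers detected per cell. Their part in the difference was not tested. Lipa, by contrast, was at 228 CPM and 194 CPM, ratios of 0.588 and 0.414.

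Between MHC class II low and high macrophages, an uptake receptor was the gene called. At a fold of 1.5 in both libraries, 1 of 12 genes was higher in MHC class II low macrophages, against 2.53%, and 0 lower, against 1.41%. The gene was Lrp1, at 312 CPM and 368 CPM in low cells and 184 CPM and 173 CPM in high cells, ratios of 1.70 (1.44 to 1.99) and 2.13 (1.52 to 2.91). The male low class held 40 cells, and 5 cells gave 58.1% of its Lrp1 UMIs. With low meaning up to 20 MHC class II UMIs per 1000 the female ratio was 1.43 and no gene was called. At the mitochondrial ceiling of 1.2%, with 16 and 4 low cells left, the ratios were 0.779 and 0.348. Lipa went in opposite directions, at 265 CPM in low and 430 CPM in high cells of the female library and at 718 CPM and 455 CPM in the male library. Abcg1 was at 0.595 times the high level in the female library (0.449 to 0.779) and 1.12 times in the male library. The synthesis sum was 233 CPM and 368 CPM in low cells against 254 CPM and 247 CPM in high cells, and the digestion list of the low cells was 976 CPM and 2094 CPM.

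Between the sexes each class gave 1 library against 1, so the ratios compare the libraries. In the other macrophages, the deepest macrophage class, 0 of 16 genes reached 1.5-fold, against 6.84% of all genes. Hmgcs1 was nearest above, at 28.5 CPM in the female and 19.7 CPM in the male library (ratio 1.44, 1.01 to 2.09), and Scarb1 nearest below, at 31.3 CPM and 46.3 CPM (0.676, 0.512 to 0.893). Soat1 (1.0, 0.888 to 1.13), Npc1 (1.02) and Abcg1 (1.01) had intervals within 1.3-fold of equality. Other settings called from 0 to 4 genes, among them Hmgcs1 and Scarb1 at a mitochondrial ceiling of 5% and those 2 with Srebf2 and Nr1h2 by the mean of single cells. The 6.84% belongs to the main settings, so these counts have no share of all genes beside them. The synthesis sum gave ratios from 0.837 in B cells to 1.05 in NK cells over 7 classes, and each interval included 1. Of the sums of the other roles in those classes, 4 had intervals under 1, namely efflux in Aldh1a2-high (0.620, 0.416 to 0.907) and Lyve1-high macrophages (0.746, 0.558 to 0.990), uptake in monocytes (0.810, 0.675 to 0.974) and control in NK cells (0.765, 0.623 to 0.941). The digestion list differed between the same libraries, with ratios of 0.565 (0.502 to 0.634) in Aldh1a2-high cells, 0.930 (0.820 to 1.05) in Lyve1-high cells, 0.834 (0.781 to 0.891) in monocytes and 0.766 (0.719 to 0.816) in NK cells. The adrenal list had ratios of 1.59 (1.10 to 2.32), 0.861 (0.643 to 1.15), 0.584 (0.393 to 0.865) and 1.31 (1.04 to 1.67) in the same order, and the part of both lists in the sex ratios was not tested.

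The same reading was made in the 6 other classes. Lyve1-high macrophages had 1 of 4 genes called, against 21.3%, namely Abca1 at 211 CPM in the female and 393 CPM in the male library (0.536, 0.372 to 0.758). Aldh1a2-high macrophages had 0 of 3, against 9.42%, and monocytes 0 of 5, against 6.68%. B cells had 1 of 8, against 7.83%, namely Abcg1 at 45.9 CPM and 23.5 CPM. The adrenal list in B cells stood at 77.7 CPM and 300.5 CPM (0.259, 0.209 to 0.319), and its part was not tested. T cells had 0 of 13, against 4.95%. NK cells had 2 of 15, against 5.79%, namely Abca1 at 23.3 CPM and 15.1 CPM and Stard4 at 13.7 CPM and 21.4 CPM. Each count above 0 rested on 1 or 2 genes, and all but Stard4 reached 50 UMIs only in the library where they were higher.

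**Figure D5:**
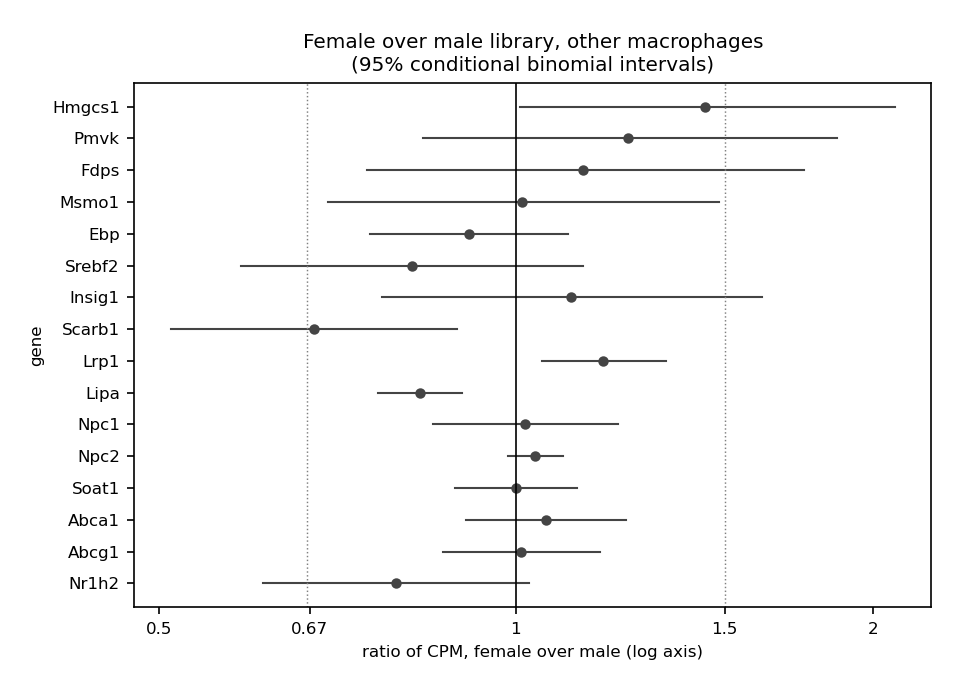
Ratio of female to male CPM in the other macrophages for the 16 genes with enough UMIs, on a log axis, with exact 95% conditional binomial intervals and dotted lines at 0.67 and 1.5. No gene lies past 1.5-fold, and Hmgcs1 (1.44) and Scarb1 (0.676) lie nearest to it.

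A further 27 genes of the pathway were read by the same rules. Against lymphocytes, 10 of the 22 tested were higher in macrophages, against 15% of all genes, and 1 was lower, against 11%. Among the higher ones were the scavenger receptors Cd36 (365 CPM and 639 CPM against 12.0 CPM and 16.2 CPM) and Msr1 (135 CPM and 113 CPM against 3.29 CPM and 1.91 CPM), which take up modified lipoproteins. Plin2, which coats lipid droplets, was 13.0 and 13.5 times higher, and Nceh1, a cholesteryl ester hydrolase, 4.03 and 3.59 times. The lower one was Gramd1a, a sterol transfer protein, with 0.407 and 0.260. Msr1 passed the minimum through macrophages alone.

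Against the other macrophages, monocytes had 1 of 16 of these genes higher, against 5.55%, and 3 lower, against 9.96%. Mylip, which marks lipoprotein receptors for degradation, was among the lower ones at 40.3 CPM and 24.3 CPM (26 and 10 UMIs) against 111 CPM and 137 CPM. Ch25h, which makes an oxysterol that holds back synthesis, had 0 UMIs in monocytes and 122 and 163 in the other macrophages. Both passed the minimum through the other macrophages alone. Mylip (0.209 and 0.155) and Msr1 (0.374 and 0.194) were also among the 4 of 15 lower in Aldh1a2-high macrophages, against 7.27%, with 0 higher, against 3.39%, and both had 11 UMIs or fewer in that subset. Lyve1-high macrophages had 1 of 15 higher and 1 lower, against 4.45% in each direction, namely Cd36 higher, at 1086 CPM and 1902 CPM against 311 CPM and 508 CPM, and Ch25h lower, from 2 and 0 UMIs. Between the monocyte classes 2 genes were tested and 1 was higher in nonclassical cells, against 4.34%. This was Cd36, at 6.89 (4.13 to 11.8) and 15.03 (7.28 to 36.0) times the classical level, which passed the minimum through nonclassical cells alone (51 and 82 UMIs against 23 and 8). Between MHC class II low and high macrophages 0 of 13 were called, against 2.53% higher and 1.41% lower. Between the sexes, 6 of 20 were called in the other macrophages, against 6.84%, 3 in each direction. Cd36 was among the lower ones in the female library (0.611, 0.562 to 0.665) and Gramd1b among the higher ones (1.69, 1.10 to 2.64, from 71 and 33 UMIs). In Lyve1-high macrophages 1 of 4 was higher in the female library and 2 lower (Cd36 and Plin2), against 21.3%. Monocytes had 0 of 5 higher and 1 lower (Cd36), against 6.68%. T cells had 1 of 14 higher and 0 lower, against 4.95%. NK cells had 1 of 16 higher and 2 lower, Plin2 among them, against 5.79%. Aldh1a2-high macrophages (3 tested, against 9.42%) and B cells (4 tested, against 7.83%) had 0.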

How the data were processed

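Living CD45+ adrenal cells were sequenced as 1 female and 1 male library. Per the labels, the authors counted UMIs with Cell Ranger 4.0.0 on mm10 from kit chemistry 3.1 and removed empty droplets with DropletUtils 1.4.3, and the deposited values are raw UMI counts per gene and barcode. Cells with at least 200 genes and at most 15% mitochondrial UMIs were kept. The study describes a ceiling of 1.2%, which keeps 327 female (8.25%) and 359 male cells (13.4%) and was run as an alternative. These are far fewer cells than the study kept, so that its ceiling may be on another scale. The files hold no cell annotation, so each cell was given to the class with the largest share of its canonical markers detected, needing 3 markers and a lead of 10% of the list over the next class. This scoring was set after the files were seen. Subsets needed 3 markers, and MHC class II low meant at most 10 UMIs per 1000 from Cd74 and the genes of the A and E chains (H2-Eb1, H2-Ab1, H2-Aa). Cells with under 3 markers of their best class (105 female and 87 male) or too small a lead (286 and 190) stayed out, and no doublet caller was run beyond this. Classes rebuilt in this way can differ from those of the study.

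Raw counts were summed per library and class and scaled to a class total of 1000000 (CPM). Intervals are exact Poisson for levels and exact conditional binomial for ratios, at 95%. Cells are not replicates, so no test was made. Folds were 2 between classes and 1.5 for MHC class II and sex, at 50 UMIs. Background percentages are the share of all genes with enough UMIs that passed the same rule. The script was tested on simulated data. Every one of the 31 genes is reported, with values for those with the most UMIs or the largest ratios and counts for the rest. The members and all lists were chosen with earlier results of these data known. A few other pathway genes are not reported here by name. Gene positions were read from GENCODE on GRCm38 and promoters from RefSeq. Strand was not used to separate exons that overlap on the same strand. Python 3.11.15, numpy 2.4.6, scipy 1.17.1 and matplotlib 3.10.9 were used. Alternatives were other mitochondrial ceilings, classes by likelihood (the same class for 93.8% of female and 94.1% of male cells), other scalings, the mean of single cells, other UMI minimums, other MHC class II limits, each library alone and a stricter exclusion of mixed cells.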

Additional observations from a re-analysis of the deposited data

Results flagged for a closer look

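Lipa was singled out because its difference between MHC class II low and high macrophages went one way in the female library and the other way in the male library. The ratio of low to high cells was 0.616 (0.529 to 0.716) in the female library and 1.58 (1.25 to 1.97) in the male library. The difference between the sexes was not tested, since each sex had 1 library. The male low class held 40 cells against 183 in the female library, and 5 of its cells gave 76.2% of its Lipa UMIs.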

How the results depend on the processing

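Of 219 values recomputed under an alternative, 168 stayed within the limits set for them, 49 moved and 2 reversed. Counts of called genes below have no share of all genes at the same setting beside them. Those between classes at a minimum of 20 UMIs are the exception, with shares given above. The ceiling of 1.2% mitochondrial UMIs had the most effect, and it left 59 female and 98 male macrophages and 0 Lyve1-high male cells, so those have no value there. It reversed the Lrp1 ratio of MHC class II low to high macrophages, to 0.779 (female, 16 low cells) and 0.348 (male, 4 low cells). It left 3 genes higher in macrophages than in lymphocytes, 0 higher and 0 lower in monocytes, 0 higher in Aldh1a2-high, 0 lower in Lyve1-high and 0 higher in MHC class II low macrophages, and 3 genes highest in nonclassical monocytes. Its synthesis ratios were 1.61 for monocytes (female), 1.87 (female) and 1.76 (male) for macrophages over lymphocytes, 1.48 and 3.46 for Aldh1a2-high cells and 2.30 and 1.12 for nonclassical over classical monocytes, and Abca1 in female Lyve1-high cells was at 5.92. A ceiling of 5% left 2 genes higher in monocytes, 1 in Aldh1a2-high and 0 lower in Lyve1-high cells, called 2 by sex in the other macrophages, left 5 highest in nonclassical monocytes and put the sex ratio of Abca1 in Lyve1-high cells at 0.369. No ceiling gave 0 lower in Lyve1-high cells and 1 by sex. Classes by likelihood gave 7 higher in monocytes, 1 by sex (Hmgcs1) and a male nonclassical synthesis ratio of 1.46. The mean of single cells gave 2 lower in Lyve1-high cells, 4 by sex and 4 highest in nonclassical monocytes.

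A minimum of 20 UMIs gave 9 higher in monocytes, 6 in Aldh1a2-high cells, 2 in nonclassical monocytes and 3 by sex, and 200 UMIs gave 0 in monocytes and 0 in Aldh1a2-high cells. Leaving out mitochondrial, ribosomal protein and immunoglobulin genes put the macrophage over lymphocyte synthesis ratio at 0.871 and 0.929. Scaling by the median ratio shifted all genes by -0.14 (log2) between male MHC class II low and high cells. A limit of 20 MHC class II UMIs per 1000 gave 0 genes higher and a female Lrp1 ratio of 1.43. The next 4 choices were made after seeing the data. The first left out cells with 3 markers of another lineage and gave 1 gene by sex. The second left Ebp out of the sum, giving 2.87 and 3.06 for monocytes and 2.44 and 2.53 for Aldh1a2-high cells. The third was the comparison of monocytes itself with its alternatives, and the fourth left Fdx1 out of the adrenal list.

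Read in a single library, counts ranged as follows, with no share of all genes in a single library to set beside them. Without the male library 4 genes were lower in monocytes, and 3 in Lyve1-high cells, and without the female library 3 were lower in Lyve1-high cells, 3 higher in MHC class II low cells and 1 (Npc2) changed between monocyte classes. The cause of these changes was not tested beyond the number of cells left. No paired analysis was possible because each sex had 1 library. Depth limited the sparse synthesis genes, most of which had under 50 UMIs in monocytes.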
